A study of Mus musculus with 2 samples.

Results

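The genes described here are 48 genes of Wnt signalling, comprising 13 Wnt ligands, 10 Frizzled receptors, 5 co-receptors and other receptors, 9 genes of the R-spondin branch, 2 genes of ligand secretion, 6 intracellular components and TCF/LEF factors, and 3 feedback and target genes. They were chosen by name, with earlier results of these data known, and the secreted Wnt antagonists were left out. A gene entered when at least 1 probe set of the array named it and no other gene, which held for 47 of the 48; Tcf7 was not analysed here. Where several probe sets named a gene, the one with the highest mean intensity over both arrays gave its value. Of these genes 39 were measured, meaning that the brighter array lay above a floor of 78.1, and they stood among 11621 measured genes of 18193 named genes in all.

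The samples were embryos homozygous for Hammer toe (Hm), a mouse mutant with webbed digits, and wild-type B6 embryos (WT). Both were at stage E13.5 after natural mating, and the tissue was the interdigital region of the hind limb, taken from the regions the labels call ID2 and ID3. The labels name B6 only for WT, so strain and Hm genotype cannot be told apart. Although the design lists 15 embryos per genotype, as 3 sets of 5 littermates, the values come from 1 Affymetrix array for each genotype, and whether the sets were pooled on it is not stated. There were therefore no replicates and no test, so every ratio below compares 2 arrays, and the number of arrays limits the precision.

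Both arrays had been scaled to the same level, with median intensities of 78.5 in Hm and 78.1 in WT. The median log2 ratio of all measured genes, Hm over WT, was 0.01. The SD of the log2 ratio was 0.06 over 18 spiked hybridisation controls, and 0.21 between probe sets that read 1 gene (5134 genes). The ratio of 95% of measured genes lay within 1.60-fold where the brighter array read up to 200, within 1.45-fold between 200 and 1000, and within 1.24-fold above 1000. Markers of interdigital and limb mesenchyme were measured for 12 of 12 listed genes, among them Hoxd13, which read 15779 in Hm and 17291 in WT.

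Wnt proteins are secreted lipid-modified ligands that bind Frizzled receptors. With the co-receptors Lrp5 and Lrp6 they stabilise β-catenin, which then acts with TCF/LEF factors on target genes; with Ror and Ryk receptors they act on cell polarity and movement. R-spondins strengthen the signal by binding Lgr receptors and keeping the ligases Znrf3 and Rnf43 from removing Frizzleds. In the limb bud, ectodermal Wnts maintain the apical ridge and set the dorsal side, while Wnt5a of the mesenchyme directs outgrowth of the digits.

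Most of the Wnt pathway read alike on both arrays, and the members furthest from WT were 2 ligands and 1 R-spondin receptor with higher readings in Hm. Wnt10a was 1.82-fold higher, Lgr6 1.60-fold higher and Wnt7b 1.45-fold higher. Of the 39 measured genes, 25 (64.1%) read higher in Hm and 14 (35.9%) lower, against 51.7% higher and 48.3% lower among all measured genes. That split depended on the choice of probe set: with the mean over probe sets, 21 members were higher and 18 lower. The members' median log2 ratio was 0.06. Those at 1.5-fold or more were 2 higher (5.13%, against 2.17% of all measured genes) and 0 lower (against 1.39%), and both directions together took in 3.56% of all measured genes. At a log2 ratio of 0.322 or more in either direction, 6 were higher (15.4%, against 8.47%) and 2 lower (5.13%, against 6.33%). No member reached 2-fold, as 0.37% of all measured genes did in either direction, 0.258% higher and 0.112% lower. Of the members, 3 (7.69%) lay beyond the range that held 95% of genes at their intensity, where by construction 5.01% of all genes lie. They were Wnt10a, and Wnt7b and Lgr4 at the very edge of the range. The surplus of higher members at these sizes rests on few genes.

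**Figure D1:**
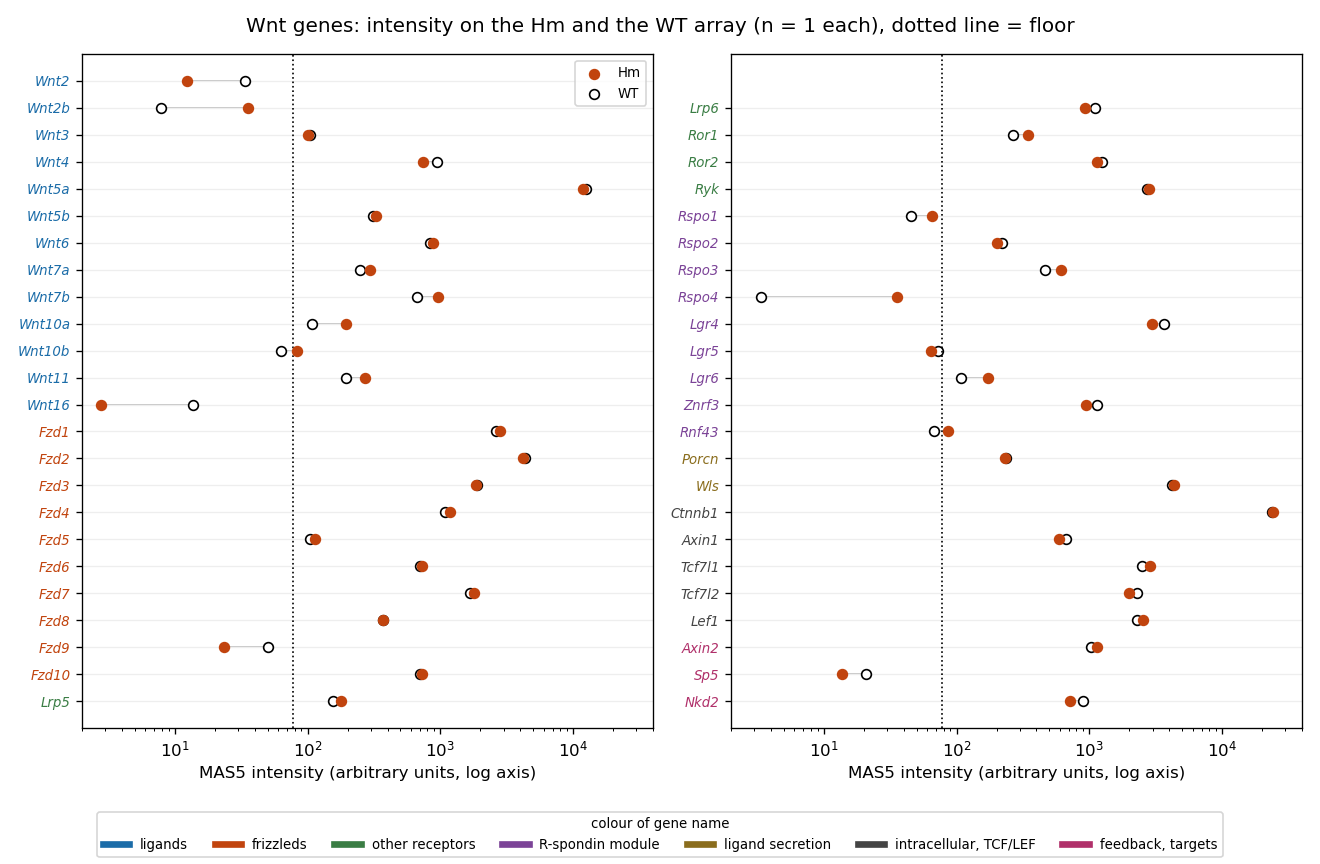
Intensity (log axis, arbitrary units) of the 47 Wnt genes with a probe set of their own, on the Hm array (filled) and the WT array (open), 1 array each, with the floor of 78.1 as a dotted line. Most pairs of points overlap; Wnt10a and Lgr6 are set apart above the floor, and 8 genes lie under it on both arrays. Probe sets differ in how strongly they bind, so positions along the axis do not rank genes by abundance.

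Among the ligands, 10 of 13 were measured, 7 higher and 3 lower in Hm, with a median log2 ratio of 0.09. Wnt10a, which signals through β-catenin and is made by limb ectoderm including the apical ridge, read 195 in Hm and 107 in WT. Its log2 ratio of 0.87 exceeded that of 99.5% of all measured genes, but it came from the gene's single probe set and from low intensities. With a pseudocount as large as the floor in place of the floor, the log2 ratio was 0.56, under 1.5-fold. Wnt7b, another ligand of the limb ectoderm, read 959 in Hm and 662 in WT. Its second probe set read 441 in Hm and 282 in WT, so the log2 ratios of its probe sets were 0.53 and 0.65, both higher in Hm. Wnt11, a ligand of the mesenchyme that acts mainly without β-catenin, read 272 in Hm and 195 in WT on its single probe set, a log2 ratio of 0.48. Of these ligands, Wnt7b alone had a second probe set.

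The other ectodermal ligands did not share the size of that difference. Wnt7a, which gives dorsal identity to the limb, read 295 in Hm and 249 in WT, a log2 ratio of 0.24. Its other measured probe set had 42.9 in Hm, under the floor, and 81.1 in WT, a log2 bound of -0.05. Wnt6 read 876 in Hm and 833 in WT, with log2 ratios of 0.07 and 0.13 on its probe sets. Wnt3, needed for the apical ridge in mice, read 101 in Hm and 105 in WT; its probe set is of the _x_at kind, which can cross-hybridise with related transcripts. Wnt10b barely passed the floor, with 82.6 in Hm and 62.8 in WT, at least 1.06-fold higher.

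Wnt4, which acts in joints and ectoderm, had the lowest ratio of all members on its brightest probe set. It read 739 in Hm and 938 in WT, 1.27-fold lower, while its second probe set read 443 in Hm and 400 in WT, a log2 ratio of 0.15. The probe sets of Wnt4 thus disagreed in sign, and their mean was -0.10. Wnt5a, the ligand of distal limb mesenchyme, read 11872.5 in Hm and 12446 in WT. All 4 of its probe sets were lower in Hm, by log2 ratios of -0.07 to -0.42. The probe set furthest from 0 was the dimmest, with 369 in Hm and 493 in WT. Wnt5b, a close relative, read 329 in Hm and 308 in WT, and its probe sets had opposite signs, 0.09 and -0.09. Wnt2, Wnt2b and Wnt16 were under the floor on both arrays, at 12.4, 35.3 and 2.79 in Hm and at 33.9, 7.81 and 13.6 in WT, where no ratio was read.

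The promoters of a few members are shown because TCF/LEF factors bind DNA through short letters that can be looked for there. The letters searched were CTTTGAT and CTTTGTT on both strands, ATCAAAG and AACAAAG being the same on the other strand; the pair share their first letters but cannot match at the same place. The window was the 250 bases before the 5′-most start of a gene in RefSeq's promoter table (GRCm38.p6), printed 5′ to 3′ along the gene with matches in capitals. Of 27025 genes with a window, 8.06% held either motif, against 3 of the 33 members with a window: Fzd7, Sp5 and Wnt11. The window of Wnt11 (chr7:98834862-98835111, + strand) has 1 match, which begins 51 bases before the start.
Wnt11: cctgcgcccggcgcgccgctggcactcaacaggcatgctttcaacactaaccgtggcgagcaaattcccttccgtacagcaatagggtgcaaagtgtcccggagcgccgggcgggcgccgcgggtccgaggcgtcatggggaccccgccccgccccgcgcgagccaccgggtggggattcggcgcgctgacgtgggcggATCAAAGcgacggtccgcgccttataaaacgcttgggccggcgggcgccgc
A match is a description of these letters and not a measured binding site.

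Frizzled receptors stayed close to WT. Of 10 genes 9 were measured, 7 higher and 2 lower (6 and 3 after median centring or quantile normalization, which turned Fzd8), and every ratio on the brightest probe set lay between -0.05 and 0.11 on the log2 scale. Fzd4, the highest, read 1182 in Hm and 1093 in WT. Fzd2, the lowest, read 4164 in Hm and 4319 in WT on an _s_at probe set, and its other probe sets had log2 ratios of 0.05 and 0.23. Fzd1 read 2825 in Hm and 2620 in WT, Fzd3 read 1842 in Hm and 1901 in WT, and Fzd7, a receptor of many β-catenin responses, read 1788 in Hm and 1679 in WT. Fzd6, which acts in planar polarity, read 725 in Hm and 702 in WT, and Fzd10 728 in Hm and 702 in WT. Fzd8 was level, at 369 in Hm and 368 in WT, and Fzd5 read 113 in Hm and 105 in WT. Fzd9 was under the floor on both arrays, at 23.4 in Hm and 49.99 in WT.

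Single dimmer probe sets of Frizzled genes lay further out. The dimmest of the 3 probe sets of Fzd4 read 149 in Hm and 220 in WT, a log2 ratio of -0.56, against 0.11 and 0.08 on the others. The 5 measured probe sets of Fzd3 ran from -0.34 to 0.11. Those of Fzd8 were 0.00 and 0.25. Fzd7's dimmer probe set gave a bound of 0.25, with 92.5 in Hm and 69.9, under the floor, in WT.

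Among co-receptors and other receptors, all 5 were measured, 3 higher and 2 lower, with a median log2 ratio of 0.04. Ror1, a receptor for Wnt5a, read 343 in Hm and 265 in WT on its single measured probe set, 1.30-fold higher. Ror2, its relative and the receptor through which Wnt5a acts on digit outgrowth, read 1144 in Hm and 1236 in WT, a log2 ratio of -0.11. The second probe set of Ror2 read 77.7 in Hm, just under the floor, and 151 in WT, at least 1.93-fold lower. With bounds counted at their bound, no measured member probe set lay further from WT. Probe sets of Lgr6 and Nkd2 also gave bounds, at log2 ratios of 0.92 and -0.80, and bounds cannot be ranked. Ryk, a Wnt receptor with an inactive kinase domain, read 2810 in Hm and 2728 in WT. All 3 Ryk probe sets were higher, but by unequal log2 ratios of 0.04, 0.40 and 0.57. Lrp6 read 926 in Hm and 1102 in WT, a log2 ratio of -0.25, with 0.01 on its second probe set. Lrp5 read 179 in Hm and 155 in WT, a log2 ratio of 0.21. The 2 β-catenin co-receptors therefore lay on opposite sides of WT, each near or within the 0.21 by which probe sets of 1 gene disagree.

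In the R-spondin branch, 6 of 9 genes were measured, 3 higher and 3 lower, with a median log2 ratio of 0.01. Its receptors lay on both sides of WT. Lgr6, which also marks stem cells of mouse skin epithelium, read 171 in Hm and 107 in WT. Its second probe set read 148 in Hm and 56.8, under the floor, in WT, so that both probe sets were above 1.5-fold, at 1.60-fold and at least 1.89-fold. Lgr6 was the only member for which every measured probe set, of more than 1, passed 1.5-fold. Its log2 ratio of 0.67 lay just inside the range of 95% of genes at that intensity, and was 0.43, under 1.5-fold, with the pseudocount. Lgr4, the broadly expressed receptor of the family, read 2948 in Hm and 3672 in WT on its single measured probe set, a log2 ratio of -0.317. Lgr5, a Wnt target and stem cell marker, was under the floor on both arrays, at 63.7 in Hm and 73.1 in WT.

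The window before the start of Lgr6 (chr1:135105277-135105526, - strand) is shown because Lgr6 was the member at 1.5-fold or more with a window in the table. It holds neither searched motif.
Lgr6: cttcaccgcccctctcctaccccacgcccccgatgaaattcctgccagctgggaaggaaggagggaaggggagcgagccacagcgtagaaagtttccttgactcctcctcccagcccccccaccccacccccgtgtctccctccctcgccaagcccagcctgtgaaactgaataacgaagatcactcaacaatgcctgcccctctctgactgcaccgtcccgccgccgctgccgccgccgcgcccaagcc
The absence says only that these letters are not in this window.

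The R-spondin ligands and the ligases they restrain also lay on both sides of WT, and none reached 1.5-fold. Rspo3, a secreted R-spondin, read 617 in Hm and 461 in WT, 1.34-fold higher on its single measured probe set. Rspo2, the R-spondin required for limb outgrowth in mice, read 200.3 in Hm and 219 in WT, a log2 ratio of -0.13. Znrf3, a ligase that removes Frizzleds and is itself a Wnt target, read 943 in Hm and 1142 in WT, a log2 ratio of -0.28. Rnf43, its relative, read 86.6 in Hm and 67.9, under the floor, in WT, at least 1.11-fold higher. Rspo1 and Rspo4 were under the floor on both arrays, at 65.7 and 35.5 in Hm and at 45.1 and 3.35 in WT.

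**Figure D2:**
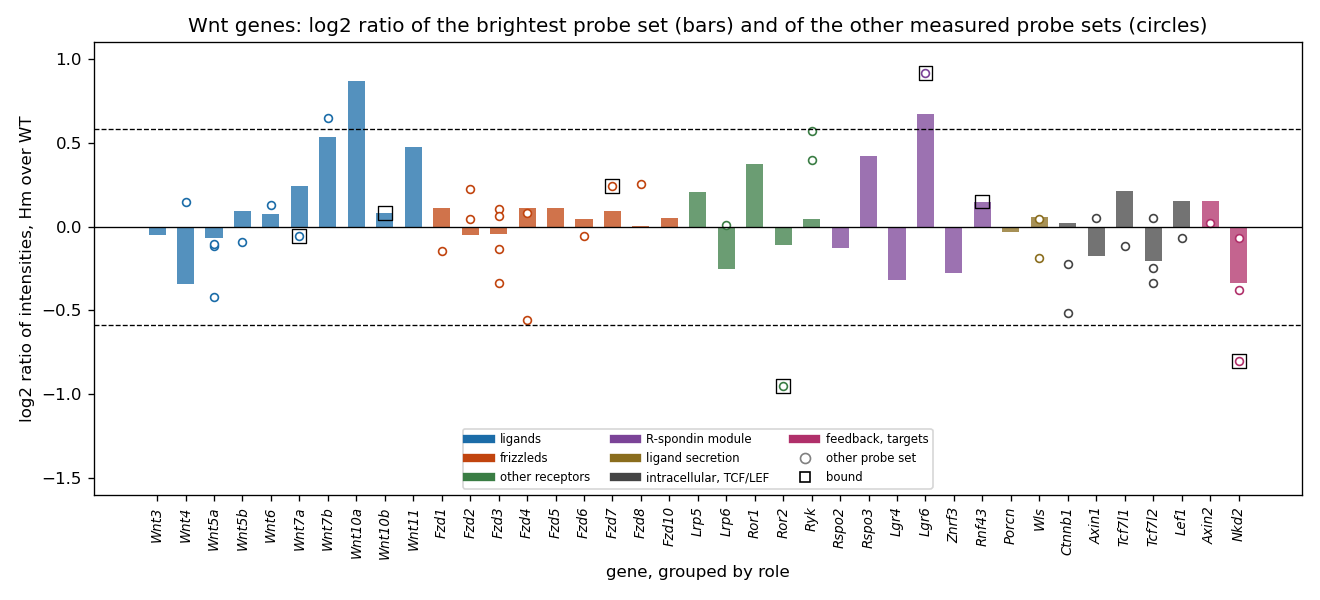
Log2 ratio, Hm over WT, of the 39 measured Wnt genes by role; bars show the probe set with the highest mean, circles the other measured probe sets, squares mark bounds, and dashed lines mark 1.5-fold. Wnt10a and Lgr6 pass the upper line, Frizzled bars stay between -0.05 and 0.11, and single dimmer probe sets of Ror2 and Nkd2 lie below the lower line.

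Genes of ligand secretion and the intracellular core lay close to WT. Wls, the carrier that brings Wnt proteins to the cell surface, read 4351 in Hm and 4181 in WT, and Porcn, the enzyme that adds their lipid, read 232 in Hm and 237 in WT. Ctnnb1, which encodes β-catenin, read 24253 in Hm and 23894 in WT on its brightest probe set, a log2 ratio of 0.02 whose sign turned under quantile normalization. Its other 2 probe sets were lower, at -0.22 and -0.51, and the value of -0.51 came from 1744 in Hm and 2490 in WT. All 3 are of the _a_at type, which reads several transcripts of a gene. Axin1, the scaffold of the complex that degrades β-catenin, read 594 in Hm and 670 in WT, with log2 ratios of -0.17 and 0.05 on its probe sets.

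The measured TCF/LEF factors did not shift together. Lef1 read 2541 in Hm and 2290 in WT, a log2 ratio of 0.15, with -0.07 on its second probe set. Tcf7l1, which mostly represses targets, read 2875 in Hm and 2478 in WT, at 0.21, with -0.12 on its second probe set. Tcf7l2 read 1985 in Hm and 2294 in WT, at -0.21, and its 4 probe sets ran from -0.34 to 0.05. For all 3 factors the probe sets had mixed signs.

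The 2 measured feedback and target genes among the members did not differ together either. Axin2, the feedback gene most often taken as a readout of β-catenin signalling, read 1137 in Hm and 1024 in WT. Its probe sets had log2 ratios of 0.15 and 0.02, both within the 0.21 between probe sets of 1 gene. Nkd2, which restrains Dishevelled, read 715 in Hm and 903 in WT, 1.26-fold lower. All 4 Nkd2 probe sets were lower, at log2 ratios of -0.34, -0.38, -0.07 and, as a bound on an _x_at probe set with 65.6 in Hm and 136 in WT, -0.80. Sp5, a transcription factor gene that Wnt signals induce directly, was under the floor on both arrays, at 13.8 in Hm and 20.8 in WT. The windows of Axin2 (chr11:108920099-108920348, + strand) and Sp5 (chr2:70474673-70474922, + strand) are set side by side because both genes are used as readouts. That of Sp5 holds 2 matches, which begin 222 and 104 bases before the start, and that of Axin2 holds 0.
Axin2: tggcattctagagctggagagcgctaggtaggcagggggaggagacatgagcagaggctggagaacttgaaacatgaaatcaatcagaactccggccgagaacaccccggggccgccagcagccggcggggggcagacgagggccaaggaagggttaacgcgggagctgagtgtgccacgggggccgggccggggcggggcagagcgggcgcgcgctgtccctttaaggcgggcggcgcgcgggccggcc
Sp5: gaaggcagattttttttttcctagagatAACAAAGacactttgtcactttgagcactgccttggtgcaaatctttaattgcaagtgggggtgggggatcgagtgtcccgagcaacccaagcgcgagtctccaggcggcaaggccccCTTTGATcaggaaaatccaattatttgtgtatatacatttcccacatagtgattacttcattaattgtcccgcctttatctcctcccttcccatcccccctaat
Sp5, whose window holds both motifs, had no reading above the floor, so no ratio can be set beside its window. For Axin2 the absence says only that these letters are not in this window. Neither window was tied to a measured difference.

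Probe sets of the same gene show how far single readings carry. The 47 genes with probe sets of their own had 99 of them, of which 78 were measured. Of the measured probe sets, 4 were at 1.5-fold or more higher and 2 lower, with bounds counted at their bound. Of the 25 genes with more than 1 measured probe set, 7 were higher on all of them, 3 lower on all and 15 mixed. The 7 were Wnt6, Wnt7b, Fzd7, Fzd8, Ryk, Lgr6 and Axin2, and the 3 were Wnt5a, Ror2 and Nkd2. The other 14 measured genes, among them Wnt10a, Wnt11, Ror1, Rspo3 and Lgr4, rest on 1 probe set each. Neither the probe set counts at 1.5-fold nor the split by sign was made over all genes of the series. Whether they are unusual for this pair of arrays therefore cannot be read from them.

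**Figure D3:**
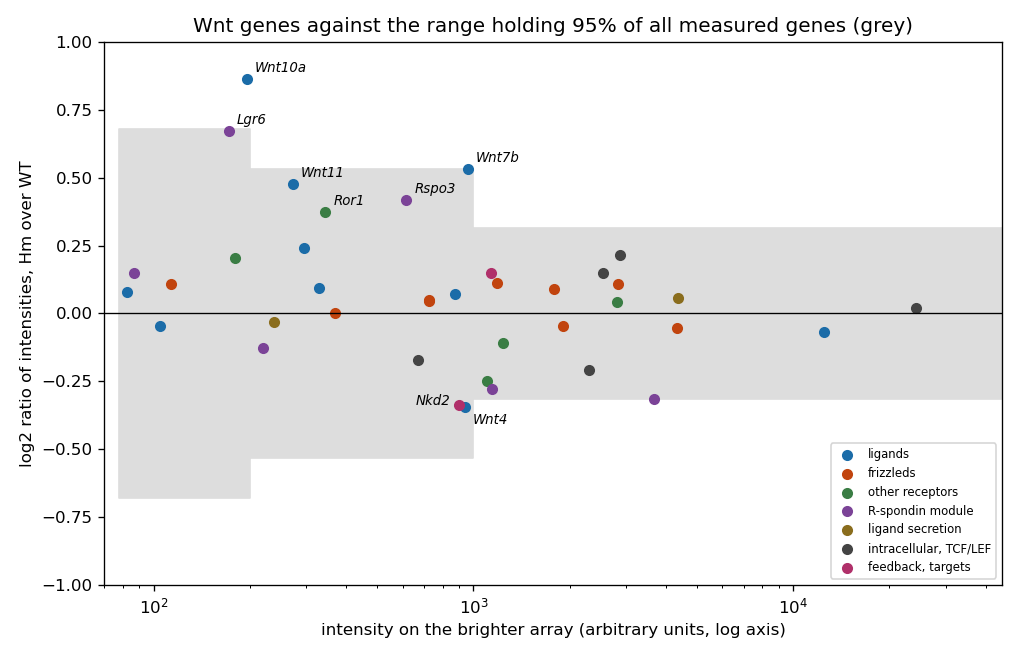
Log2 ratio, Hm over WT, against the intensity on the brighter array (log axis) for the 39 measured Wnt genes, coloured by role, with names at a log2 ratio of 0.322 or more in either direction; grey marks the range that holds 95% of all measured genes in 3 bins of intensity. Wnt10a is outside the range, and Wnt7b and Lgr4 are at its edge.

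Surface ectoderm makes several of these ligands, and its markers also read higher in Hm. Of 19 listed markers 19 were measured, 16 higher and 3 lower, with a median log2 ratio of 0.36 and a summed intensity of 21029 in Hm and 16758 in WT. The 3 at 1.5-fold or more were Krt19 (at least 2.53-fold), Esrp2 (1.76-fold) and Jup (1.51-fold), and no marker of the list was under the floor on both arrays. The ratio of the sums was 1.255, which the brightest markers weigh most. Single markers ran from a log2 ratio of -0.14 to a bound of 1.34, so the sum is no yardstick for single genes. Hm over WT was 1.82 for Wnt10a, 1.45 for Wnt7b, 1.18 for Wnt7a, 1.05 for Wnt6 and 0.97 for Wnt3. For Wnt4, which acts in joints and ectoderm, it was 0.79 on the brightest probe set and 1.11 on the second. Wnt10b was at least 1.06. In tissue of mixed cells, more cells of a type and more RNA per cell cannot be told apart. The part of ectoderm in the ratios of Wnt10a, Wnt7b and Lgr6 was not tested. Markers of the apical ridge read level only in sum, at 2873 in Hm and 2884 in WT. Of 8 measured of 9 listed, 3 were higher and 5 lower, with a median of -0.10. They ran from a log2 ratio of -0.30 for Fgf8 to 0.43 for Sp8. The brightest, Dlx5, read 1126 in Hm and 1164 in WT and weighs most in the sum. Fgf17 was under the floor on both arrays.

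Most markers of limb mesenchyme, which makes Wnt5a, read slightly lower in Hm. Of its 12 markers, 3 were higher and 9 lower, with a median of -0.12, and the sums were 74408 in Hm and 81505 in WT. The only 2 past 1.5-fold went the other way: Tbx2 read 506 in Hm and 311 in WT, 1.63-fold higher, and Tbx3 read 455 in Hm and 262 in WT, 1.74-fold higher. Cartilage markers had a median of -0.57, 12 of 13 being lower, and sums of 10758 in Hm and 16576 in WT, and joint markers were lower in 3 of 3. Macrophage markers were higher in 11 of 12 (median 0.40) and skeletal muscle markers in 7 of 9 (median 0.44). Endothelial markers were higher in 7 of 12 (median 0.01), Schwann cell and nerve markers in 5 of 6 (median 0.08) and erythroid markers in 0 of 7 (median -0.36). The part of these cells in the Wnt readings was not tested.

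**Figure D4:**
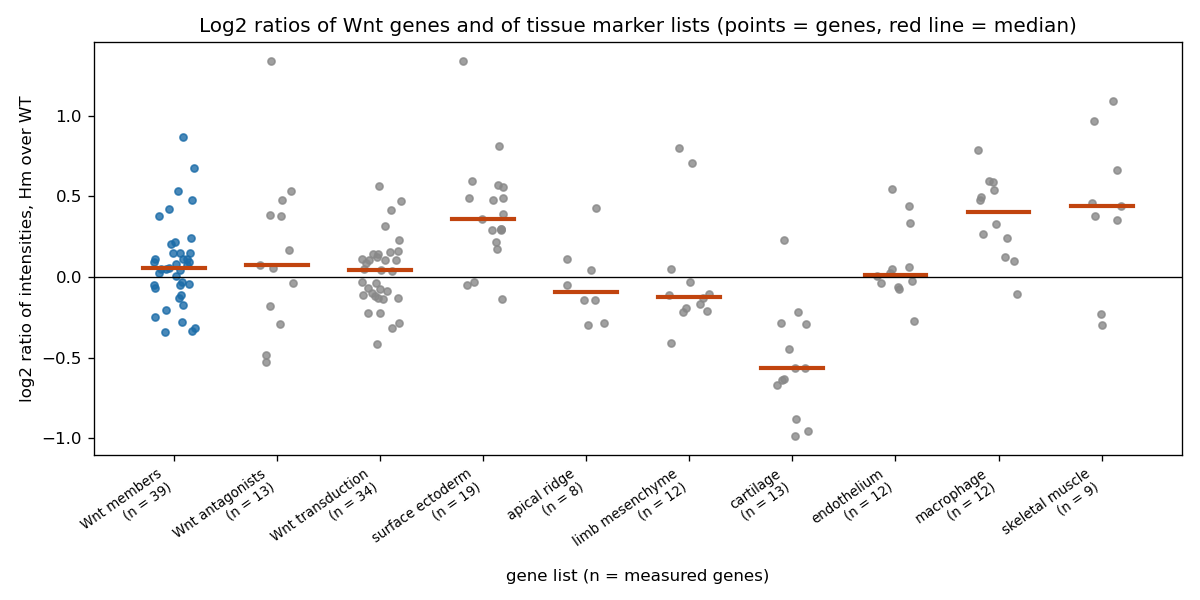
Log2 ratio, Hm over WT, of each measured gene (points) and the median (red line) for the Wnt genes, 2 further Wnt lists and 7 marker lists of cell types. The Wnt genes centre on 0.06, surface ectoderm on 0.36 and cartilage on -0.57.

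Of 36 listed transduction genes 34 were measured, 18 higher and 16 lower, with a median log2 ratio of 0.04, and none reached 1.5-fold. The furthest were Celsr1, with 504 in Hm and 340 in WT, and Vangl1, with 557 in Hm and 401 in WT, at log2 ratios of 0.57 and 0.47. Both are planar polarity genes, but other such genes of the list lay on both sides of WT. Celsr2 was at 0.42, Ptk7 at 0.16, Scrib at 0.12 and Prickle2 at 0.04. Prickle1 was at -0.08, Vangl2 at -0.28 and Daam1 at -0.32. Of 19 genes often used as Wnt targets 17 were measured, 11 higher and 6 lower, with a median of 0.08. At a log2 ratio of 0.322 or more in either direction, 6 of the 17 were higher and 0 lower. They were Dkk1, Tnfrsf19, Apcdd1, Myc, Jag1 and Sp8, of which Dkk1 and Apcdd1 are also in the list of antagonists. Among all measured genes 8.47% were higher and 6.33% lower at that size. The list was chosen with earlier results of these data known, so its count beside these shares is no independent support. Only 1 of the 17 was at 1.5-fold or more. That gene was Dkk1, which is also a secreted antagonist. Of 17 listed antagonists 13 were measured, 8 higher and 5 lower, with a median of 0.08, and Dkk1 was again the only one at 1.5-fold or more, with 1873 in Hm and 741 in WT. Among 6 further Wnt ligand genes, only Wnt9a and Wnt3a were measured, both lower in Hm, with a median of -0.42. Wnt9a, which marks joints, read 81.6 in Hm and 116 in WT, 1.42-fold lower. Wnt3a read 23.3, under the floor, in Hm and 97.5 in WT, a log2 bound of -0.32.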

How the data were processed

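Total RNA (250 ng) from 1 sample per genotype was measured on Affymetrix arrays. The authors deposited 1 MAS5 intensity per probe set; the submitters' processing notes name Affymetrix Expression Console as the tool and give no version. Leaving out the highest and lowest 2% of values, the mean intensity of each array was 500.003, so a change of most transcripts in 1 direction cannot be seen.

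Of 45101 probe sets, 64 were controls. GEO's platform annotation, with symbols matched by gene ID to the RefSeq table of GRCm38.p6, gave 1 gene to 34945 probe sets, several to 932 and none to 9160; 204 of the probe sets with 1 gene had a gene ID without a match and kept the annotation's symbol. Values under the floor, the median of all non-control values (78.1), were set to the floor, and the log2 ratio was then taken as Hm over WT. Where 1 array was under the floor the ratio is a bound, written "at least" or called a bound. Genes were called by size (1.5-fold), with no test. Every member was named; of the other Wnt lists, up to 6 genes past 1.5-fold were named, or else the 2 furthest. Marker lists are given by counts and medians. The ectoderm, apical ridge and mesenchyme markers named were chosen after their values were seen. The members and lists were chosen with earlier results of these data known. The alternatives were median centring, quantile normalization, lowess correction (span 0.3), no floor, other floors, a pseudocount, the mean over probe sets, leaving out suffixed probe sets, and other sizes of change. Code ran in Python 3.11.15 with pandas 2.3.3 and statsmodels 0.14.6, and was tested on simulated data.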

Additional observations from a re-analysis of the deposited data

How the results depend on the processing

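Across 9 alternatives of scaling, floor and probe set choice, the 39 member ratios gave 322 values within 0.21 of those reported and 10 further away. The 0.21 is the SD between probe sets of 1 gene. Much of this agreement was fixed in advance. Another floor, or none, leaves the ratio unchanged for a gene above the floor on both arrays. Leaving out suffixed probe sets changes nothing where the brightest has no suffix. The mean changes nothing for genes with 1 measured probe set. With the mean, Wnt4, Fzd4, Ror2, Ryk and Ctnnb1 lay further away than 0.21. Wherever a value was had, 32 genes kept their sign. The exceptions were Ctnnb1, Fzd1, Fzd2, Fzd4, Fzd6, Fzd8 and Wls, all reported between -0.05 and 0.11. Neither Wnt10a nor Lgr6 changed sign, and both stayed at 1.5-fold or more except with a pseudocount, where their log2 ratios were 0.56 and 0.43, and under a 75th percentile floor (498), where neither was measured. Members at 1.5-fold or more numbered 4 higher and 4 lower of 47 with no floor. With the floor at the 25th percentile (19.8) they numbered 4 higher and 2 lower of 46. There were 0 higher of 25 with the 75th percentile floor and 0 higher of 39 with the pseudocount. Counted from a log2 ratio of 0.322 there were 6 higher and 2 lower, and at 2-fold 0 higher. All measured genes at 1.5-fold or more numbered 252 higher and 162 lower of 11621 as reported. They numbered 2364 and 2301 of 18193 with no floor, and 1176 and 1084 of 15722 with the low floor. With the high floor they were 25 and 21 of 7026, and with the pseudocount 119 and 81 of 11621. The extra member calls at lower floors thus came with more calls over all genes. The median of the R-spondin branch was 0.35 with no floor or the low floor and -0.28 with the high floor, as the genes measured differ. The median of the feedback and target genes was -0.34 with no floor. The members' median stayed between 0.04 and 0.08. The split of 25 higher and 14 lower members was 21 and 18 with the mean over probe sets. It was 14 and 11 with the high floor, and 23 and 11 without suffixed probe sets. No paired analysis was possible because there was 1 array per genotype. Low intensities limit the readings of Wnt10a, Lgr6, Wnt10b and Rnf43.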
